A study of Mus musculus with 4 samples.

Results

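The genes described here are 10 core components of Notch signalling: the receptor genes Notch1, Notch2 and Notch3, the ligand genes Jag1, Jag2 and Dll1, the genes Rbpj and Maml1 of the nuclear complex, and the target genes Hes1 and Hey1. They were chosen by gene name, with earlier results of these data known. Every site that the authors' lists assign to one of them was taken. These are 23 of 14284 sites, 7 of them in list 1 and 16 in list 2. Of the 10 genes 8 had at least 1 site, of 6625 genes with a site in all. For comparison, 28.9% of all protein-coding genes in RefSeq had a site, whether or not they are expressed in these cells. That share was not matched for gene span, and among genes spanning up to 4000 bases it was 7.03%. The mark studied was m6A (N6-methyladenosine), a methylated adenosine within mRNA, and the assay was MeRIP-seq, in which RNA fragments bound by an anti-m6A antibody (IP) are sequenced beside unselected fragments (input). The 4 libraries, 2 of input and 2 of IP, came from epidermal keratinocytes of control mice on postnatal day 0. All carried the genotype K14Cre,Mettl14F/+. Cre is driven by the promoter of the basal keratin gene Krt14, and a floxed allele of the m6A methyltransferase gene Mettl14 was present in all libraries. The labels do not say whether the replicates came from separate or pooled animals. No group without Cre or without the floxed allele was analysed here.

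Notch signalling passes between touching cells. A ligand of the Jagged or Delta-like family on one cell binds a Notch receptor on its neighbour, the receptor is cut by proteases, and its intracellular part enters the nucleus. There it joins the DNA-binding protein RBPJ and a Mastermind-like coactivator, and genes of the Hes and Hey repressor families are switched on. In the epidermis the pathway is known for moving keratinocytes from the basal into the suprabasal layers. m6A is known to be frequent near stop codons and in the last part of many messenger RNAs, and to affect their stability and translation.

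The values of each site are the authors' own. Fold enrichment is the ratio of IP over input at the site, the score is the negative log10 of the site's p-value multiplied by 10, and the false discovery rate (FDR) is in percent. The median fold of all sites was 11.58 in list 1 and 11.93 in list 2. An FDR below 100% was held by 40.8% of all sites in list 1 and 48.5% in list 2. FDR values went no lower than 55.67% in list 1, and the minimum of list 2 stood at 51.16%. No site of either list thus had a low FDR, and an FDR below 100% is only a relative mark. Strong and weak sites are named by their fold. The lists give no read counts and cannot be tied to a replicate number, so a site's fold has no error here and no difference between the lists could be tested. They also give no expression level, so methylation and the abundance of a transcript cannot be told apart, nor can fewer cells of a type and less RNA per cell. Among cell type markers, 5 of 7 basal keratinocyte ones had a site (Krt14 and Krt15 had none). Of the suprabasal markers 4 of 7 had one (Krt1, Krt10 and Lor had none). Of the dermal fibroblast markers 7 of 8 had a site, of the melanocyte markers 3 of 6, of the endothelial markers 3 of 8 (Pecam1, Tek, Tie1, Vwf and Emcn had none) and of the immune markers 2 of 6. For comparison, 28.9% of all protein-coding genes in RefSeq had a site. A site is no measure of expression, so these counts cannot show which cell types were present. Fibroblast, endothelial and immune cells also use Notch genes, and the part of such cells in the sites below was not tested. Positions are on GRCm38, counted from 1, and the strand and span of each gene are those of RefSeq.

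All 3 receptor genes had sites in both lists, and in none of them did the sites of the lists overlap. Notch1, the main receptor of the differentiating epidermis, had 1 site in list 1, at chr2:26458697-26459038, with a fold of 15.92, a score of 3100 and an FDR of 55.81%. In list 2 Notch1 had a site at chr2:26481571-26481693 with a fold of 29.11 (FDR 87.67%). The other Notch1 site of list 2, at chr2:26465063-26465139, had a fold of 5.67 (FDR 94.88%). The list 1 site lay 795 bases from the 3′ end of the gene, whereas the sites of list 2 lay 7161 and 23669 bases from it, and the nearest sites of the lists were 6024 bases apart. The list 1 site also overlaps the RefSeq long noncoding gene 0610009E02Rik, from which its reads could not be told apart here.

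Notch2 held most sites of the 10 genes, with 6 in list 2 and 1 in list 1. Its strongest were neighbouring sites of list 2. The first, at chr3:98099568-98099579, was 12 bases long and had a fold of 60.1 (FDR 77.18%). The second, at chr3:98100200-98100355, had a fold of 54.75 (FDR 79.23%). The next, at chr3:98107047-98107157, had a fold of 22.7. The 3 sites closest to the 3′ end had lower folds of 6.03, 2.59 and 4.52, and these and the preceding one stood at an FDR of 100%. In list 1 the Notch2 site at chr3:98113014-98113155 had a fold of 3.19, a score of 20.33 and an FDR of 100%, 5856 bases from the nearest site of list 2. The fold of 3.19 was held by 557 of the 6038 sites of list 1 (9.22%), so it does not set Notch2 apart from other weak sites. Ordered by the highest fold per gene, Notch2 stood at 3445 among the 4187 genes of list 1 and at 1224 among the 5045 of list 2.

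Notch3, a receptor best known from vascular smooth muscle and also made by suprabasal keratinocytes, had 1 site in list 1 and 2 in list 2. The list 1 site, at chr17:32147765-32147990, had a fold of 8.32 (FDR 100%). In list 2 the site at chr17:32143244-32143544 had a fold of 43.09, a score of 3100 and an FDR of 59.47%. The other, at chr17:32122293-32122637 and 1473 bases from the 3′ end, had a fold of 6.05 (FDR 96.23%) and overlaps the long noncoding gene Gm38585. The strongest sites of the lists were separated by 4220 bases. For all 3 receptor genes the highest fold was above the median of all sites in list 2, while in list 1 this held for Notch1 alone. Notch1, Notch2 and Notch3 had 2, 6 and 2 sites in list 2, but 1 each in list 1. The highest of several sites is more likely to exceed a median than a single site, so the lists are not compared alike here. Each receptor gene also had a list 2 site below that median.

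**Figure D1:**
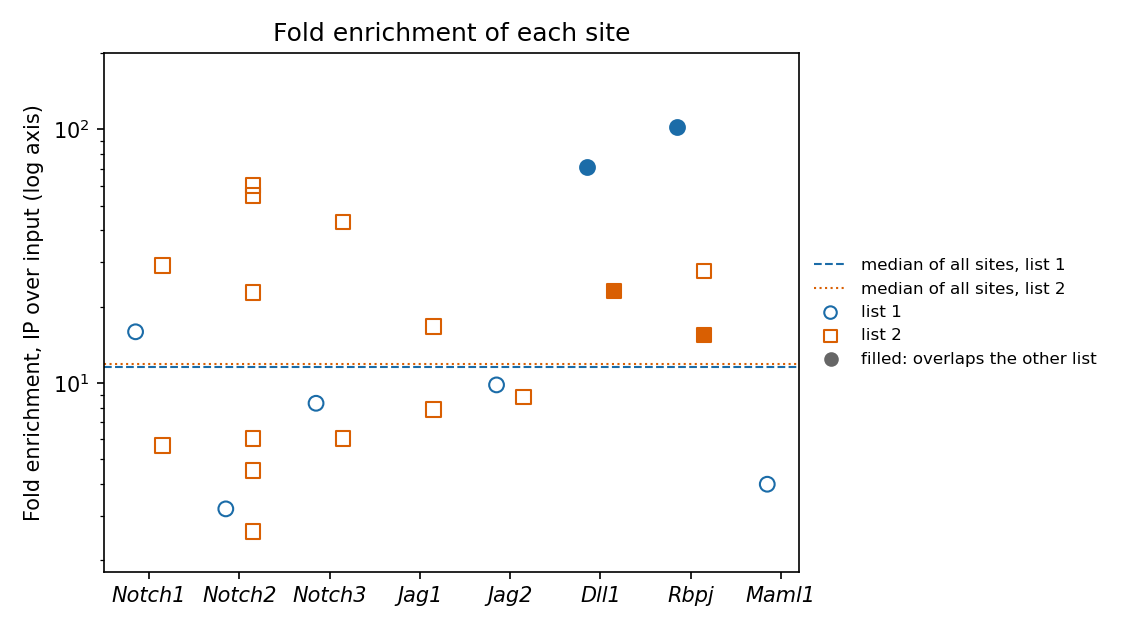
Fold enrichment (IP over input, log axis) of each of the 23 sites, by gene, with circles for list 1 and squares for list 2. Filled symbols overlap a site of the other list, and the lines give the median of all sites of each list, 11.58 and 11.93. The filled symbols are those of Dll1 and Rbpj, and the highest values are 101.93 for Rbpj and 71 for Dll1, both in list 1.

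Among the ligand genes, Dll1 had sites in both lists at the same place, Jag2 had sites at opposite ends of the gene, and Jag1 had sites in list 2 alone. The Dll1 site of list 1, at chr17:15368901-15369165, was 265 bases long and had a fold of 71, a score of 3100 and an FDR of 55.81%. In list 2 the site at chr17:15369162-15369165 had a fold of 23.1, a score of 1251.25 and an FDR of 77.32%. This second site is 4 bases long and ends at the same base as the first, so the overlap is 4 bases, and it was lost when sites had to share 50% of their length. The fold was 3.07 times higher in list 1. Dll1 encodes a Delta-like ligand known from human basal keratinocytes, and it had no other site.

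Jag2, a Jagged ligand of the basal layer, had 1 site in each list with similar folds and distant positions. In list 1 the site at chr12:112908590-112908719 had a fold of 9.83 (FDR 78.99%) and lay 787 bases from the 3′ end. In list 2 the site at chr12:112929002-112929232 had a fold of 8.8 (FDR 100%) and lay 580 bases from the 5′ end, 20282 bases from the other. It was the one site of the 23 within 2000 bases of a 5′ end. Jag1, a Jagged ligand made in the suprabasal layers, had its stronger site at chr2:137082782-137083134, with a fold of 16.72, a score of 3100 and an FDR of 59.47%, 1331 bases from the 3′ end. A weaker one at chr2:137093207-137093320 had a fold of 7.85 (FDR 100%). List 1 held no Jag1 site.

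Of the nuclear complex, Rbpj carried the highest fold of the 10 genes. This gene encodes the DNA-binding protein through which all Notch receptors act on their targets. Its site at chr5:53653082-53653185 had the same start and end in both lists, with a fold of 101.93 (score 3100, FDR 55.81%) in list 1 and 15.48 (score 1068.77, FDR 80.07%) in list 2. The fold was thus 6.58 times higher in list 1. List 2 held a second Rbpj site at chr5:53656165-53656573, with a fold of 27.66 (FDR 75.18%), 872 bases from the 3′ end. In the same order of genes Rbpj stood at 720 in list 1 and at 1845 in list 2. RefSeq lists 3 Rbpj pseudogenes, and because reads from such copies could not be told apart here, the Rbpj values are uncertain. Maml1, which encodes the Mastermind-like coactivator of the complex, had 1 site in list 1, at chr11:50256583-50256782, with a fold of 3.99, a score of 382.82 and an FDR of 100%. List 2 held none.

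The target genes Hes1 and Hey1, which encode transcriptional repressors switched on by Notch, had no site in either list. They are the shortest of the 10 genes, spanning 2440 and 3680 bases, against 9579 (Dll1) to 136830 bases (Notch2) for those with a site. Of all protein-coding genes in RefSeq 28.9% had a site, and of those spanning up to 4000 bases 7.03%. Both shares count genes whether or not they are expressed in these cells, and a part of the span in the absence of sites was not tested. The absence of a listed site does not show that a transcript is unmethylated, since the lists give neither its coverage nor its level.

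Counted over genes, 6 of the 8 genes with a site had one in both lists, and 2 of the 8 had one that overlapped. Of all genes with a site in either list, 39.4% had one in both and 27.2% had an overlapping one. The first count was above its background, which was not matched for span or number of sites. The second count was near its own background. Because the genes were chosen with earlier results of these data known, neither comparison is independent of the data. Both are counts over 8 genes and were given no test. Over sites, 2 of the 7 in list 1 and 2 of the 16 in list 2 overlapped the other list, beside 36.7% and 26.8% of all sites. Among all genes with a site in both lists 69.2% had an overlapping one, against 2 of 6 here. The other 4 of the 6, namely the 3 receptor genes and Jag2, were separated by 4220 to 20282 bases between the lists. In list 1 4 of the 7 sites had an FDR below 100%, and in list 2 10 of the 16. A p of 1e-05 or less was held by 6 of 7 and 14 of 16 sites, beside 73.7% and 76.9% of all sites of these lists. The median fold was 9.83 over the 7 sites of list 1 and 16.1 over the 16 of list 2. The highest Notch sites ranked 861 of 6038 in list 1 (Rbpj) and 1616 of 8246 in list 2 (Notch2).

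The overlapping sites of Dll1 and Rbpj both had the higher fold in list 1. Of 2222 overlapping pairs in all genes, 26.1% were more than 2 times higher in list 1 and 22.3% more than 2 times higher in list 2. Both Notch pairs share an edge to the base, as did 73.8% of all overlapping pairs, and 31.6% of all pairs had both edges identical, as Rbpj does. Whether such edges are exon boundaries was not tested. Of the 1802 other genes with an overlapping site, those whose folds in both lists came closest to Dll1 were Bub1b (74.76 and 24.43, a distance of 0.11 in log2 units), Ttc3 (67.4 and 21.6, 0.123) and Cenpk (79.8 and 23.49, 0.17).

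All 8 genes with a site had one close to the 3′ end of the gene. The distance from the nearest site to that end ran from 787 bases in Jag2 and 795 in Notch1, through 872 in Rbpj, 949 in Maml1, 1331 in Jag1 and 1473 in Notch3, to 1547 in Dll1 and 1557 in Notch2. A window of 2000 bases, chosen after these distances were seen, thus held a site of 8 of 8 genes and 9 of the 23 sites. These were 4 of 7 sites in list 1 and 5 of 16 in list 2, beside 19.1% and 18.0% of all sites that could be placed. The next site outside it was one of Notch2, 2693 bases from the end. With a window of 1000 bases the count was 4 of 8. Among all genes with a site and a known strand, 32.8% had one within 2000 bases of the 3′ end, 21.9% within 1000 and 41.5% within 3000. That background covers 78.3% of the genes with a site in their span, under the 80% asked of such a check, which is void for that reason. The shares of 19.1% and 18.0% cover the 76.1% and 76.0% of sites that could be placed, so they are void too. Without strand, 48.6% of 6396 genes had a site within 2000 bases of either end of the gene, against the same 8 of 8. At 1000 bases of either end the share was 35.8%, against 4 of 8, and at 3000 bases it was 57.6%, against 8 of 8. Among genes whose span lay within the range of these 8 the share was 42.8%, and among those that also had 2 or more sites it was 46.9%.

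The site near the 3′ end came from list 1 in Notch1, Jag2, Maml1 and Dll1, and from list 2 in Notch2, Notch3, Jag1, Rbpj and Dll1. Dll1 was thus the single gene of the 8 with such a site in both lists. Of all 1643 genes with a known strand and such a site, 17.7% had one in both. This share rests on the same known-strand genes, so it is void as well and 1 of 8 was not judged by it. In Notch1, Notch2 and Notch3 the site with the highest fold in list 2 lay farther inside the gene, with its centre at 48.3%, 62.9% and 51.0% of the span from the 5′ end. In Jag1 and Rbpj the highest fold of list 2 lay near the 3′ end, at 95.7% and 98.9%. Distances are along the genome and include introns, and exons, stop codons and UTRs were not analysed here.

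**Figure D2:**
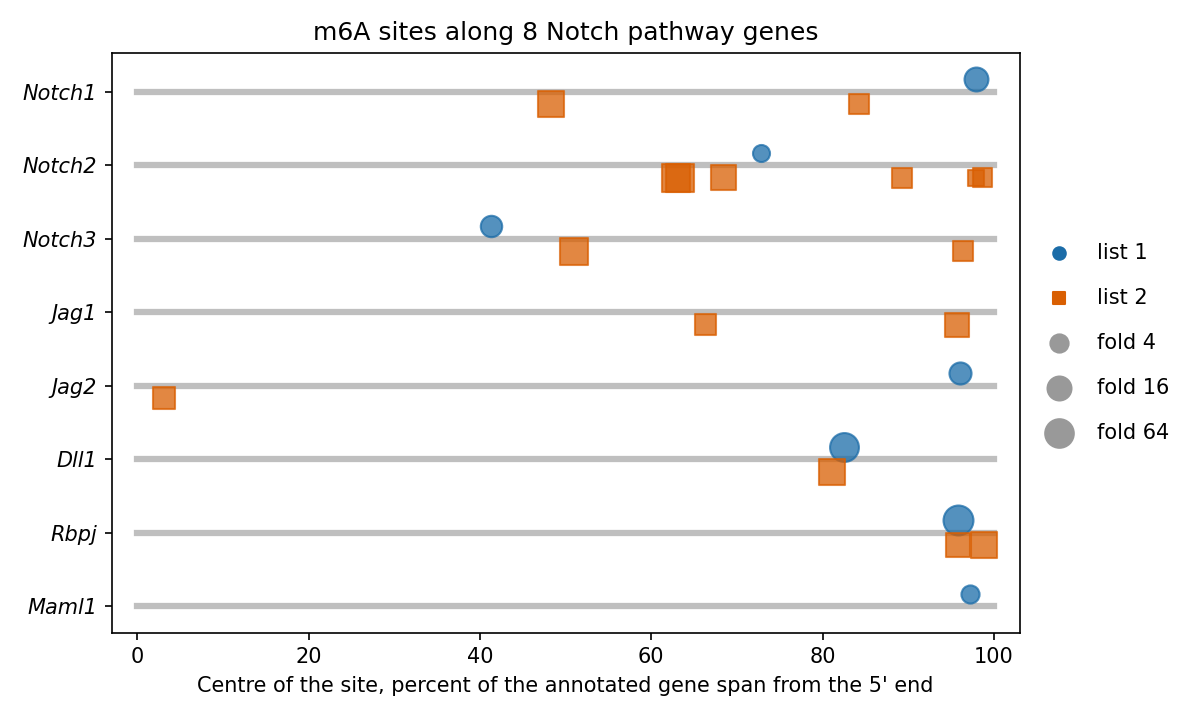
Position of the 23 sites along the 8 genes with a site, as the centre of the site in percent of the annotated gene span from the 5′ end. Circles above the line are sites of list 1, squares below it those of list 2, and a larger symbol is a higher fold. Every gene shown has a site at 81.1% or beyond, and the Jag2 square at 3.16% is the one site near a 5′ end.

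**Figure D3:**
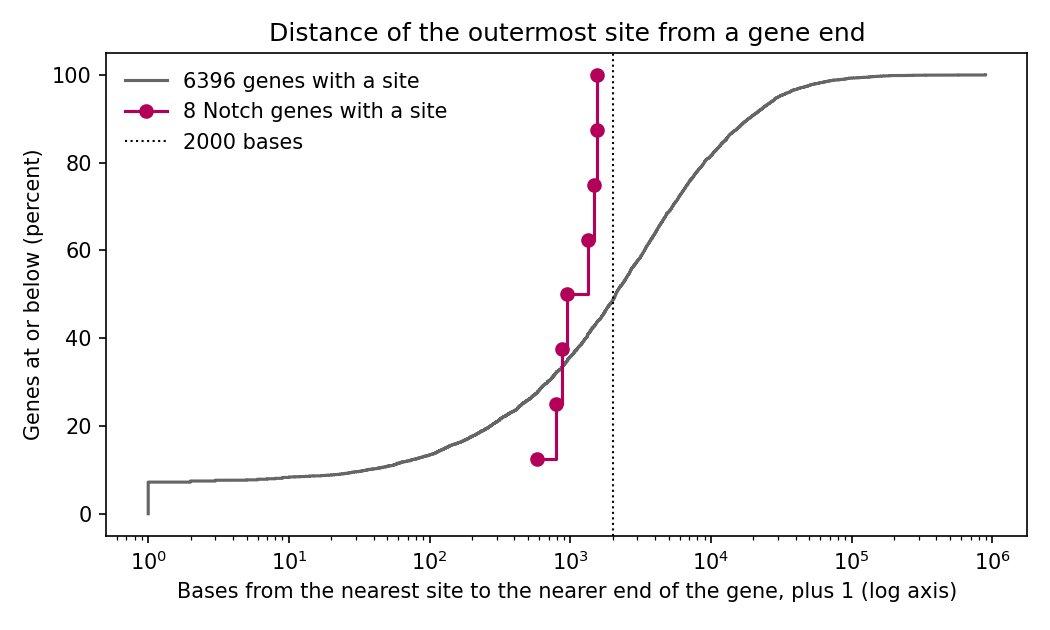
Cumulative percent of genes by the distance in bases (plus 1, log axis) between the nearer end of the gene and the site closest to it. The 8 Notch genes with a site run from 580 (Jag2, at its 5′ end) to 1557 bases, all below the dotted line at 2000 bases, which 48.6% of 6396 genes do not pass.

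The rest of the pathway was read from a list of 57 genes grouped by role, also chosen with earlier results of these data known. Of these, 28 had a site, beside 28.9% of all protein-coding genes, whether or not they are expressed in these cells. Of the 28, 12 had a site in both lists (42.9%, beside 39.4% of all genes with a site) and 8 at an overlapping position (28.6%, beside 27.2%). The count of 8 fell to 5 with sites at an FDR below 100% and to 5 in the 50% of sites with the higher fold. In the 50% with the higher score it was 6. Those 8 were Spen, Ncor1, Fbxw7, Mib1, Pofut1, Furin, Hes7 and Snw1. A site within 2000 bases of either gene end was present in 18 of the 28, beside 48.6% of all genes with a site.

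The corepressors that keep Notch targets off in the absence of a signal held the most sites, 10 in list 1 and 27 in list 2, in 6 of 12 genes. They are also the largest role group, and Spen and Ncor1 held 12 sites each over both lists. Of the coactivators, 6 of 7 genes had a site. Spen, a scaffold that binds RBPJ and recruits histone deacetylases, had 4 overlapping pairs. The strongest, at chr4:141478686-141479331 in list 1, had folds of 366.78 and 198.9. Another, with the same edges in both lists at chr4:141517032-141517318, had folds of 119.08 in list 1 and 2.47 in list 2, the latter with a score of 6.76. A pair at chr4:141521758-141521957 in list 1 went the other way, with 3.26 in list 1 and 88.89 in list 2, and the remaining pair had 51.82 and 17.51. Ncor1, the nuclear receptor corepressor, had folds of 71.73 and 566.24 at its strongest pair, with 3 sites in list 1 and 9 in list 2.

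Of the genes for receptor turnover, Fbxw7, the ubiquitin ligase subunit that marks the Notch intracellular domain for degradation, had an overlapping site with folds of 472.27 and 92.44, at chr3:84903644-84904027 in list 1. This was the highest lower fold after Spen. The endocytic adaptor gene Numbl (14.66) and Dtx1 (2.67) had a site in list 2 alone, and Dtx2 (3.05) in list 1 alone, each at an FDR of 100%. Dtx1 and Dtx2 encode Deltex proteins, which bind the receptor. In ligand endocytosis, Mib1, the ubiquitin ligase that ligand-bearing cells need to signal, had folds of 59.04 and 134.08 at its stronger pair, and Neurl1b had 7.23 in list 2 alone.

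Among the enzymes that put sugars on the receptor, Pofut1, which adds O-fucose, had a site with the same edges in both lists and folds of 247.29 and 46.3, at chr2:153261198-153261440. Poglut1, which adds O-glucose, had 26.33 in list 2 alone, and the fringe gene Rfng had 6.73 and 7.19 at its sites in list 1. Furin, the convertase that matures the receptor, had close folds of 6.64 (FDR 100%) in list 1 and 7.72 (FDR 70.63%) in list 2 at its overlapping site.

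The coactivator gene Snw1 had folds of 3.08 (FDR 100%) in list 1 and 9.01 (FDR 89.8%) in list 2 at its overlapping site. Its strongest site, in list 2 alone, had a fold of 75.49 (score 3100, FDR 59.47%). Hes7, a Hes family repressor best known from the segmentation clock of the embryo, had an overlapping site with a fold of 3.19 in list 1 (score 8.77, FDR 100%) and 205.66 in list 2 (score 2613.23, FDR 61.77%). A tRNA gene overlaps this site. Dll4, a Delta-like ligand best known from endothelium, had 3.19 in list 1 and 2.67 in list 2 at separate positions with scores of 14.12 and 7.2. The fold of 3.19, that of Hes7 and Dll4 in list 1, was held by 557 of the 6038 sites of that list (9.22%). The fold of 2.67 was held by 592 of the 8246 sites of list 2 (7.18%). Notch4, Dll3, Hes5, Hes6, Hey2 and Heyl were among the 9 further ligand, receptor and target genes without a site. Of the 13 overlapping pairs of these 57 genes, 5 were more than 2 times higher in list 1 and 5 more than 2 times higher in list 2.

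**Figure D4:**
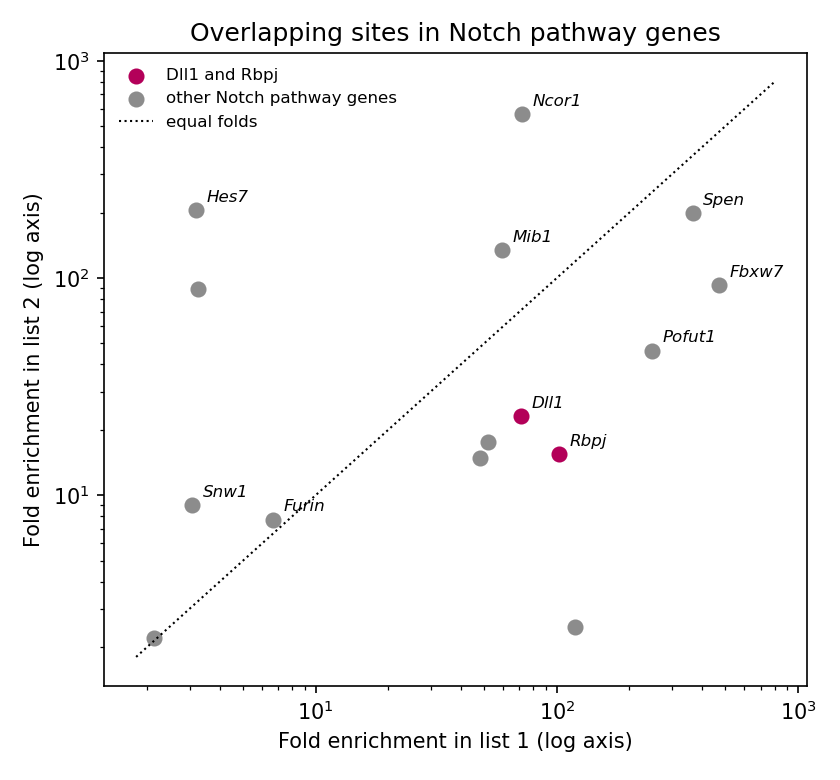
Fold enrichment in list 1 against list 2 (log axes) at each overlapping pair of sites in Notch pathway genes, with the strongest pair of each gene named and a dotted line at equal folds. Dll1 (71 and 23.1) and Rbpj (101.93 and 15.48) lie below the line, and Hes7 (3.19 and 205.66) lies farthest above it. The Hes7 site of list 1 had an FDR of 100%.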

How the data were processed

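Peaks of MeRIP-seq in control keratinocytes were taken as deposited in 2 lists. Peak identifiers contain MACS, a peak caller, per the deposited lists. Positions are on GRCm38, per the submitters' processing notes. Neither aligner nor filters nor the libraries behind each list were stated. Per the file headers, fold enrichment is a ratio by the authors, the score is the negative log10 of the p-value times 10, the FDR is a percent, and site positions and lengths are in bases. Because length equals end minus start in the deposited lists, 1 was added to each start. Depth per library is unknown, so no interval is given.

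The members and gene lists were chosen with earlier results of these data known. Sites sharing at least 1 base on a chromosome were called overlapping, which was tested on simulated data. Gene spans came from RefSeq on GRCm38.p6 (97.6% and 97.8% of sites matched by gene identifier), and strand from its promoter table, which placed 76.1% and 76.0% of sites. No test was made: with 2 lists and no counts, members are set beside the share over all genes or sites. Named were all 10 members, genes of the wider list with an overlapping site or in role groups with at most 4 genes with a site, and the 3 genes nearest in fold to the member with the highest lower fold. Alternatives were thresholds on sites (p of 1e-05 or less, FDR below 100%, the 50% with the higher fold or score, equal numbers by score), a reciprocal overlap of 50%, sites within 100 bases merged, each list alone and the largest overlap. Added after seeing the data were windows of 1000 and 3000 bases, either gene end, and the thresholds for the position and the wider list. Sequences of sites were not analysed here. For 1 gene of the wider list no values are given. The tools were Python 3.11.15, pandas 2.3.3, numpy 2.4.6 and matplotlib 3.10.9.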

Additional observations from a re-analysis of the deposited data

How the results depend on the processing

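The count of 6 genes with a site in both lists moved to 3 with sites at an FDR below 100%, in the 50% with the higher fold and in the 50% with the higher score. The background of 2607 genes moved with it, to 925, 1169 and 1087. As shares of genes with a site in either list these were 25.9%, 30.7% and 28.4%, against 39.4% without a threshold. The Notch genes were then 3 of 7, 3 of 6 and 3 of 7. The count of 6 was 5 at a p of 1e-05 or less and 6 with equal numbers by score. The count of 2 genes with an overlapping site, and of 2 overlapping sites, moved to 1 each (Rbpj) with a reciprocal overlap of 50%, and was 2 under the 6 other settings tried for it. The number of genes with a site ran from 6 to 8 over 7 settings. The 8 genes with a site within 2000 bases of the 3′ end were 4 in the 50% with the higher fold and 4 with a window of 1000 bases. They were 6 at an FDR below 100%, 6 in the 50% with the higher score, and 8 with a window of 3000 bases. The 12 genes of the wider list with a site in both lists moved to 7 at an FDR below 100%. They were 8 in the 50% with the higher fold, 8 in the 50% with the higher score and 10 at a p of 1e-05 or less. The 8 genes of that list with an overlapping site moved to 5 at an FDR below 100% and in the 50% with the higher fold. They were 6 in the 50% with the higher score. Pairing by the largest overlap gave the same folds for Dll1 and Rbpj. The causes of these shifts were not tested, beyond the fewer sites that each threshold leaves. No paired analysis was possible because the lists carry no replicate number. For the same reason no library could be left out.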
